A study of Mus musculus with 23 samples.

Results

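The ovary transcriptome of NZO/HlLtJ females was compared with that of C57BL/6J females when both strains ate the 44% fat diet. Strain and diet were read from the sample titles, and the rule gave 8 libraries, 4 of each strain, out of 23 in the series. The series also holds CAST/EiJ libraries on 10% and 44% fat, which were in the fitted model but in no comparison. NZO/HlLtJ is an inbred strain with polygenic obesity and diabetes susceptibility, and C57BL/6J is the inbred strain whose genome is the mouse reference. The mice were wild type by label and female. Their ovaries came from NZO/HlLtJ on 44% fat with fiber and C57BL/6J on 44% fat with fiber, the diet described as high in fat and sugar. NZO/HlLtJ (4 libraries) and C57BL/6J (3 libraries) on the 10% fat diet with fiber served as a second, separate strain comparison. Feeding ran from 6 to 15 weeks of age, when the ovaries were collected. The labels name no further treatment, give no cycle stage and do not say whether each library is a separate animal, so p-values measure only the spread between these libraries, which may be technical.

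The ovary holds follicles, in which granulosa cells surround an oocyte, and an interstitium of theca and stromal cells. After ovulation the follicle becomes a corpus luteum, whose luteal cells take up lipoprotein cholesterol, cleave its side chain in mitochondria and secrete progesterone. Steroid-producing cells have abundant endoplasmic reticulum, where chaperones fold secreted and membrane proteins, and resident macrophages lie between them. In rodents prolactin keeps the corpus luteum active, acting through STAT5.

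The libraries held 31938819 to 43542861 estimated counts in NZO/HlLtJ and 35744725 to 45850873 in C57BL/6J. Against their label the libraries showed ovary markers throughout, with the 14 granulosa markers summing to 4752 to 6628 CPM (counts per gene as a proportion of the scaled library size) in NZO/HlLtJ and 5664 to 6410 CPM in C57BL/6J. Skeletal muscle markers summed to at most 1.31 CPM in NZO/HlLtJ and 1.44 CPM in C57BL/6J. C57BL/6J replicate 1 stood apart, since its 9 tested oviduct epithelium markers summed to 259 CPM. The NZO/HlLtJ libraries lay between 33.4 and 41.5 CPM for that sum, and the other C57BL/6J libraries between 21.7 and 52.2 CPM. The 11 white adipocyte markers summed to 238 CPM in that same library, against 95.5 to 124 CPM in NZO/HlLtJ and 69.0 to 90.7 CPM in the other C57BL/6J libraries. Each count below was therefore also taken without it. Sample identifiers fall in series 76, 82 and 90, which no label calls a batch. NZO/HlLtJ has 2 libraries in series 76 and 2 in series 90, and C57BL/6J has 1 in series 76, 2 in series 82 and 1 in series 90. Among the 8, series 82 therefore holds C57BL/6J libraries alone, and there series and strain cannot be told apart. The first principal component of the 8 libraries, on the 1000 most variable genes, held 60.6% of the variance. On it NZO/HlLtJ libraries lay between 38.3 and 43.3, and C57BL/6J libraries between -50.4 and -33.2.

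The strain difference was broad and about even in direction. Of 20189 genes tested with edgeR's quasi-likelihood test, 2534 (12.6%) passed a Benjamini-Hochberg adjusted p of 0.05. NZO/HlLtJ was higher in 1212 genes (6.00%) and lower in 1322 (6.55%), and the median log2 fold change of all genes was -0.01. At least 2-fold differences were seen in 528 of the higher and 567 of the lower genes. At least 4-fold differences were seen in 227 and 291. The 4 NZO/HlLtJ and 4 C57BL/6J values did not overlap for 1114 of the higher and 1198 of the lower genes, while 22.5% of all genes tested showed no overlap. With 1 library left out the count ranged from 1680 to 2521, the lowest being without C57BL/6J replicate 3, and without C57BL/6J replicate 1 it was 1894.

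The strain comparison on 10% fat, which shares no library with this one, called 2019 genes (10.0%). Of the 2534 genes called on 44% fat, 2451 (96.7%) had the same sign on 10% fat, against 74.0% of all genes tested. Both diets called 1351 genes in the same direction, which is 53.3% of the 44% fat list and 66.9% of the 10% fat list, and 1 gene was called in opposite directions. As a description across genes, which are not independent replicates, the log2 fold changes on the 2 diets had a Pearson correlation of 0.924 over the called genes and 0.723 over all genes. The median absolute log2 fold change of the called genes was 0.85 on 44% fat, the comparison that chose them, and 0.69 on 10% fat.

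**Figure D1:**
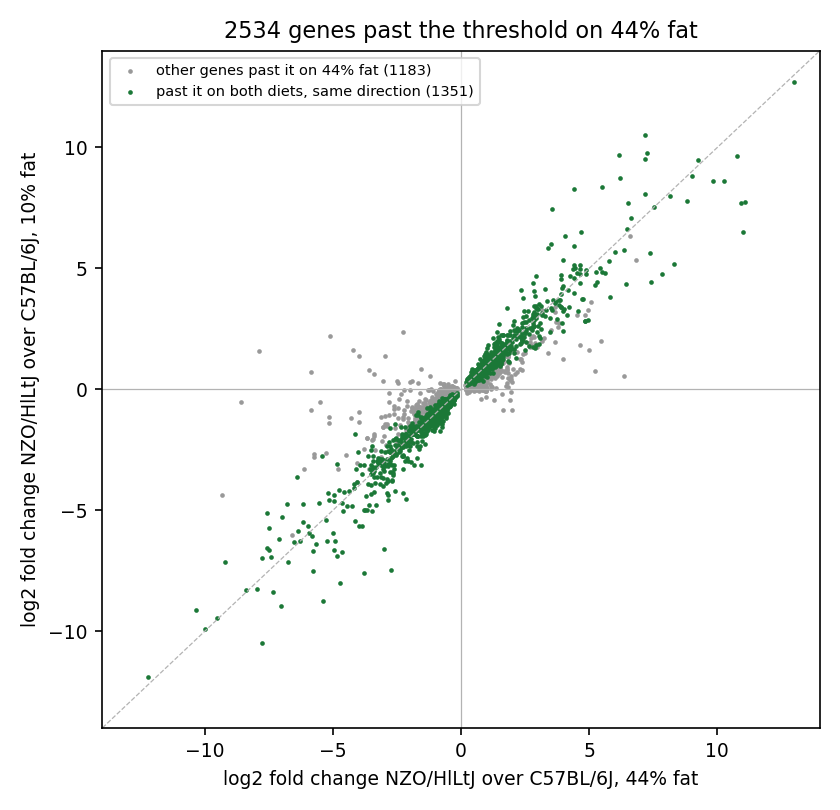
Each point is 1 of the 2534 genes called on 44% fat, with its log2 fold change NZO/HlLtJ over C57BL/6J on 44% fat (horizontal axis) and on 10% fat (vertical axis). Green points are the 1351 genes called in the same direction on both diets, grey points the rest, and most lie near the dashed line of equal values.

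Cyp11a1 and Scarb1, which serve luteal steroid production, and Akr1c18, which breaks progesterone down, were lower in NZO/HlLtJ. Cyp11a1 (chr9:58006411-58027023 on GRCm38) encodes the side-chain cleavage enzyme that makes pregnenolone from cholesterol. Its level was 1365, 1344, 871 and 1822 CPM in NZO/HlLtJ, against 5856, 4218, 6228 and 4349 CPM in C57BL/6J. Every NZO/HlLtJ library was below every C57BL/6J library, and the log2 fold change was -1.93 ± 0.27 (SE; edgeR adjusted p = 5.65e-05). Scarb1 (chr5:125277087-125341094), the high-density lipoprotein receptor that supplies cholesterol esters, measured 406, 382, 422 and 482 CPM in NZO/HlLtJ and 1166, 602, 1418 and 679 CPM in C57BL/6J. The groups did not overlap, although the C57BL/6J libraries split into a higher and a lower pair (log2 fold change -1.19 ± 0.24, edgeR adjusted p = 0.00203). Akr1c18, the 20-alpha-hydroxysteroid dehydrogenase that inactivates progesterone, was at 6.64, 9.58, 24.3 and 4.06 CPM in NZO/HlLtJ against 62.0, 231, 100 and 70.1 CPM in C57BL/6J. It passed the threshold (log2 fold change -3.38 ± 1.03, edgeR adjusted p = 0.0355) but lost it without NZO/HlLtJ replicate 1, 2 or 4 and without C57BL/6J replicate 2 or 3, with adjusted p between 0.059 and 0.103. Within series 76 and 90 its adjusted p was 0.246. These 3 were the members called among the 10 luteal markers, 8 of which had negative log2 fold changes, with a median of -1.25. Among all genes tested 6.55% were called lower. In the 5 fits in which Akr1c18 was lost the list had 2 members called. The summed level of the 10 was 2323 to 4627 CPM in NZO/HlLtJ and 7807 to 12560 CPM in C57BL/6J. Cyp11a1 is part of this sum and is also a theca and interstitial marker. It was the only one called of 11 such markers (9.09%, against 12.6% of all genes tested). Log2 fold changes were positive for 7 of those 11, with a median of 0.03. In bulk tissue fewer cells of a type and less RNA per cell cannot be told apart.

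The steroid difference did not extend to every gene of the pathway at this depth. Of the 20 steroid synthesis genes tested, Cyp11a1 and Akr1c18 were the members called, and none was called higher (list median -0.54). That share of 10.0% is near the 12.6% called in either direction among all genes tested, where 6.55% were called lower. On 10% fat Cyp11a1 was again lower in NZO/HlLtJ (log2 fold change -1.82 ± 0.29, edgeR adjusted p = 0.00024). Scarb1 had -0.76 ± 0.25 there (adjusted p = 0.0612) and Akr1c18 0.63 ± 1.02 (adjusted p = 0.775). The difference of Akr1c18 between the diets did not pass the adjusted test.

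Soat1, which esterifies cholesterol for storage in lipid droplets, measured 1685, 1656, 1441 and 1546 CPM in NZO/HlLtJ and 1043, 948, 1178 and 1069 CPM in C57BL/6J. That is a log2 fold change of 0.58 ± 0.14 (edgeR adjusted p = 0.00704), and the difference in CPM was among the 6 largest of the genes called higher. Of 25 genes of cholesterol synthesis and uptake, Stard4 was called higher and Sc5d and Scarb1 lower (list median -0.20), with 4 lower without C57BL/6J replicate 4. With all libraries the share called was 12%, near the 12.6% of all genes tested. Stard4, a carrier of cholesterol between membranes, averaged 74.7 ± 10.6 CPM in NZO/HlLtJ and 47.1 ± 12.9 CPM in C57BL/6J (SD, n = 4 each; log2 fold change 0.67 ± 0.14, edgeR adjusted p = 0.00374). Sc5d, a late enzyme of cholesterol synthesis, averaged 59.3 ± 13.3 CPM in NZO/HlLtJ and 138 ± 16.4 CPM in C57BL/6J (log2 fold change -1.22 ± 0.28, edgeR adjusted p = 0.00644). None of the 20 fatty acid synthesis genes passed in either direction in the edgeR fit over all 23 libraries. Fitted on only the libraries compared, edgeR called 5 lower, and it called 3 lower within identifier series 76 and 90. DESeq2 called 1 lower, limma with library quality weights 2, and no fit called any higher.

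Cish was lower in NZO/HlLtJ than in C57BL/6J on this diet. It encodes a suppressor of cytokine signalling that STAT5 induces. It had 13.2, 9.84, 10.6 and 11.4 CPM in NZO/HlLtJ against 50.9, 44.4, 117 and 31.2 CPM in C57BL/6J. All NZO/HlLtJ values were below the lowest C57BL/6J value (log2 fold change -2.43 ± 0.37, edgeR adjusted p = 0.000121). On 10% fat it averaged 15.3 ± 4.92 CPM in NZO/HlLtJ (SD, n = 4) and 20.02 ± 0.846 CPM in C57BL/6J (SD, n = 3), a difference that did not pass (log2 fold change -0.38 ± 0.37, edgeR adjusted p = 0.593). The test of the diet difference gave an unadjusted p of 0.000872 in edgeR's model and did not pass over all genes. Lepr, the leptin receptor, was higher in NZO/HlLtJ, at 76.2, 87.2, 67.2 and 56.0 CPM against 26.6, 29.2, 20.7 and 41.5 CPM in C57BL/6J (log2 fold change 1.28 ± 0.18, edgeR adjusted p = 6.13e-05). These were the members called of 15 leptin and JAK-STAT genes, a share of 13.3%, near the 12.6% of all genes tested. NZO/HlLtJ carries a known Lepr variant. The table gives counts for the gene and not for its isoforms or alleles.

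**Figure D2:**
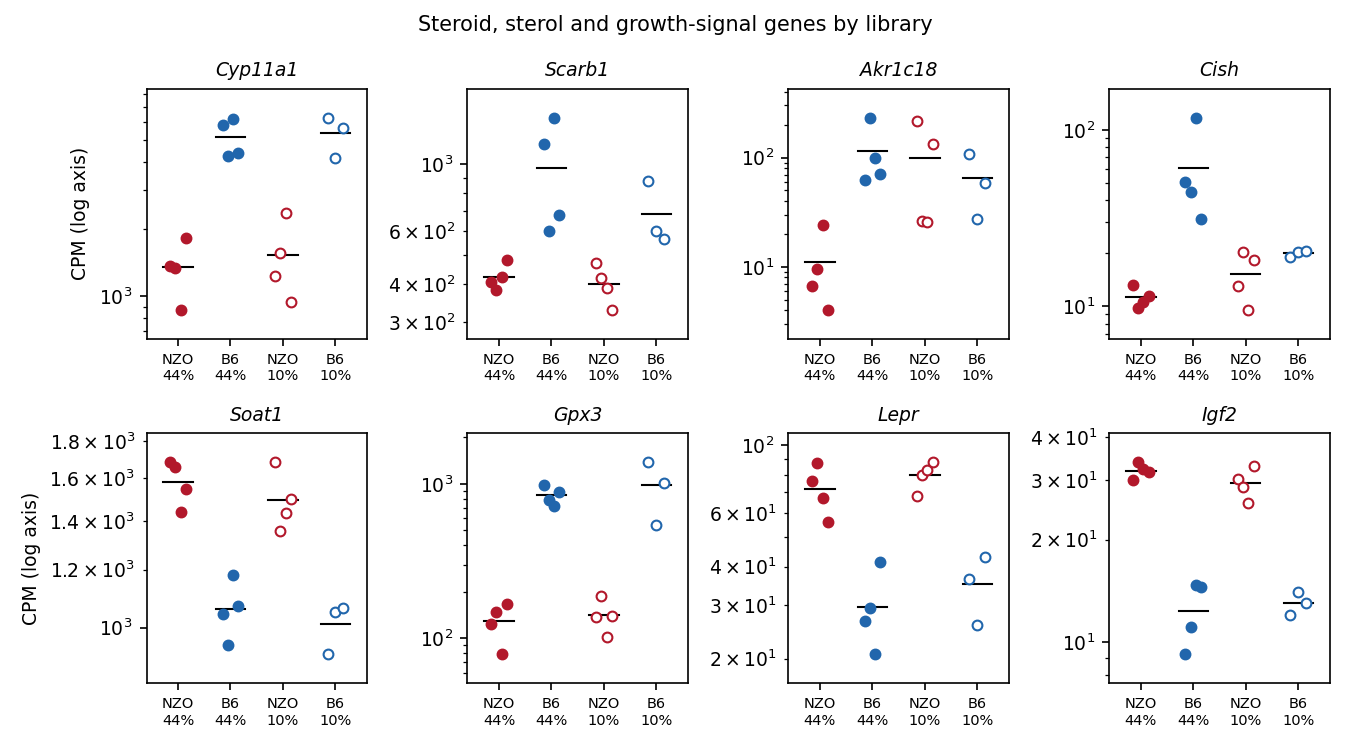
CPM on a log axis of 8 genes in each library, with NZO/HlLtJ in red and C57BL/6J (B6) in blue, filled points for 44% fat and open points for 10% fat, and black lines for group means. On 44% fat Cyp11a1, Scarb1, Akr1c18, Cish and Gpx3 are lower in all 4 NZO/HlLtJ libraries and Soat1, Lepr and Igf2 are higher in all 4.

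Chaperones of the endoplasmic reticulum were lower in NZO/HlLtJ on 44% fat. The unfolded protein response is the program by which a cell raises these chaperones when unfolded protein builds up, and the factors ATF6 and XBP1 bind the endoplasmic reticulum stress element, CCAAT and CCACG spaced by 9 bases, in their promoters. Of the 20 genes listed, 12 were called lower and none higher, 18 had negative log2 fold changes and the median was -0.42, against 6.55% called lower and a median of -0.01 among all genes tested. Each segment shown here is a 39-base stretch of a RefSeq promoter (GRCm38.p6, 250 bases before to 50 after the start), read 5′ to 3′ in the orientation of the element, with the CCAAT and CCACG parts in capitals. They are shown because these chaperones share the element with few other genes.

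Hspa5: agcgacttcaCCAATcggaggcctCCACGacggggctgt
Creld2: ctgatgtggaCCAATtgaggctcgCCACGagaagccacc
Pdia6: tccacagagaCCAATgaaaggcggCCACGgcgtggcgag
Calr: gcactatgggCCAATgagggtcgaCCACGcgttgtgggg
Canx: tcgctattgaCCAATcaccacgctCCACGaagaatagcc
Dnajc3: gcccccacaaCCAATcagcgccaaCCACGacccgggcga

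They lie at chr2:34772015-34772053 (plus strand) for Hspa5, chr15:88819510-88819548 (minus) for Creld2 and chr12:17266481-17266519 (plus) for Pdia6. The others lie at chr8:84847065-84847103 (plus) for Calr, chr11:50325790-50325828 (minus) for Canx and chr14:118937817-118937855 (plus) for Dnajc3. Hsp90b1 held the element too, once on each strand. Searched on both strands as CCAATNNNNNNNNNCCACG, it was in the promoters of 37 of 27025 genes (0.137%), and in 7 of the 17 listed genes with a promoter in the table. Of those 7, Hspa5, Creld2, Pdia6, Calr and Hsp90b1 were called lower. In all, 10 of the listed genes with a promoter were called lower, and only these 5 of them held the element. The promoter of Pdia4, which had the largest fold of the list, did not hold it. Canx and Dnajc3 had edgeR adjusted p of 0.0751 and 0.0790. Calr lost its call without NZO/HlLtJ replicate 1 or 2 or C57BL/6J replicate 1 or 3 (adjusted p 0.051 to 0.0684), and Hsp90b1 without any single library but C57BL/6J replicate 4 (adjusted p 0.0575 to 0.116). With series as a term Calr had 0.0647 and Hsp90b1 0.125. Pdia6, Calr, Hsp90b1, Canx and Dnajc3 are named for the element, after their values were seen. Among the 15 other tested genes with the element, 2 were called lower and 2 higher, with a median of -0.07. The sequences are of the reference strain, C57BL/6J, so they say nothing of NZO/HlLtJ alleles, and a match is not a bound site.

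Hspa5 (chr2:34771970-34777547), the main chaperone of the endoplasmic reticulum, measured 779, 827, 942 and 982 CPM in NZO/HlLtJ and 1641, 1356, 1388 and 1166 CPM in C57BL/6J. The groups did not overlap (log2 fold change -0.65 ± 0.14, edgeR adjusted p = 0.00413). Pdia4, a protein disulfide isomerase, had the largest fold of the list, with 245, 242, 272 and 268 CPM in NZO/HlLtJ against 480, 846, 424 and 441 CPM in C57BL/6J (log2 fold change -1.09 ± 0.25, edgeR adjusted p = 0.00554). The spread among C57BL/6J libraries came mostly from replicate 2. Sdf2l1, a partner of Hspa5, averaged 15.9 ± 2.21 CPM in NZO/HlLtJ and 28.6 ± 5.10 CPM in C57BL/6J (SD, n = 4 each; log2 fold change -0.85 ± 0.19, edgeR adjusted p = 0.00511). Creld2, a disulfide isomerase of the same compartment, averaged 35.6 ± 4.35 CPM in NZO/HlLtJ and 58.8 ± 11.9 CPM in C57BL/6J (log2 fold change -0.72 ± 0.21, edgeR adjusted p = 0.0267). Creld2 did not pass without C57BL/6J replicate 1 or 3 or without NZO/HlLtJ replicate 1, 2 or 3, with adjusted p from 0.0522 to 0.101. With series as a term its adjusted p was 0.0946, and within series 76 and 90 it was 0.0735 for Creld2 and 0.0662 for Pdia4.

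On 10% fat, where 4.46% of all genes were called higher and 5.54% lower, none of the 20 passed in either direction and their median was 0.02. Hspa5 there averaged 1126 ± 76.04 CPM in NZO/HlLtJ (SD, n = 4) and 972 ± 193 CPM in C57BL/6J (SD, n = 3; log2 fold change 0.21 ± 0.15, edgeR adjusted p = 0.442). The test of the difference between the diets had its lowest unadjusted p in the list at Hspa5 (edgeR, 0.000534), and none of the 20 passed after adjustment over all genes, so the list is not shown to differ between the diets. The count of 12 lower members on 44% fat was 7 without C57BL/6J replicate 1, 6 without NZO/HlLtJ replicate 1 and 6 without NZO/HlLtJ replicate 2. Without C57BL/6J replicate 3 it was 8, a change of just 1.5 times. With identifier series as a term the count was 6, and within series 76 and 90 alone it was 4, always with none higher.

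**Figure D3:**
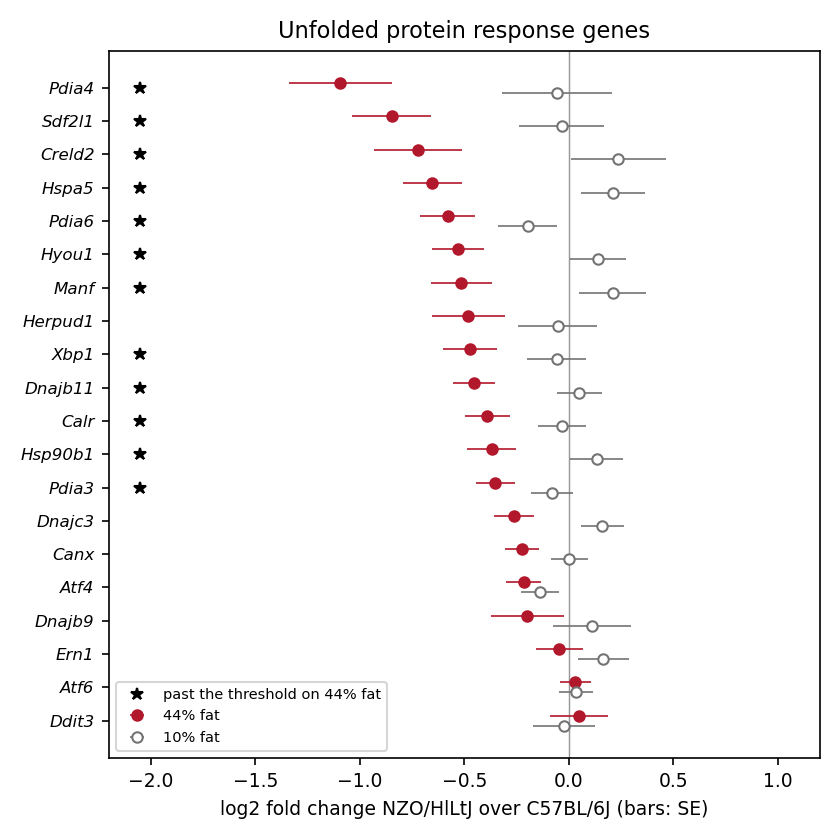
Log2 fold change NZO/HlLtJ over C57BL/6J with its SE for the 20 unfolded protein response genes, on 44% fat (red, filled) and on 10% fat (grey, open), with stars beside the 12 genes that passed on 44% fat. On 44% fat 18 of the 20 lie below 0, and on 10% fat the values scatter around 0.

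Several class I genes of the H2 complex were lower in NZO/HlLtJ, and most genes of the 2 antigen presentation lists were not called. These genes present peptides to T cells, and the strains carry different H2 haplotypes. Of 20 class I and peptide loading genes, 5 were called lower, none higher and 15 neither way, and 7 had positive log2 fold changes (list median -0.15). That is 25% called lower, against 6.55% of all genes tested called lower and 12.6% called in either direction. H2-K1 (chr17:33996017-34000333), a classical class I chain, was at 108, 72.6, 69.5 and 66.0 CPM in NZO/HlLtJ against 218, 190, 209 and 196 CPM in C57BL/6J (log2 fold change -1.36 ± 0.21, edgeR adjusted p = 0.000169). H2-Q7 averaged 3.15 ± 1.41 CPM in NZO/HlLtJ and 25.2 ± 3.42 CPM in C57BL/6J (SD, n = 4 each; log2 fold change -3.002 ± 0.29, edgeR adjusted p = 3.36e-07). H2-Q6 and H2-Q4 had log2 fold changes of -2.13 ± 0.40 and -1.23 ± 0.21. The class I genes are near copies of each other and the values rest on how reads were divided, so each single value is uncertain, and a mapping difference between haplotypes was not tested.

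Among 11 class II genes, 1 was called higher and 2 lower, together 27.3% against 12.6% of all genes tested. H2-Ea-ps, the class II E alpha gene that is not transcribed in the C57BL/6J haplotype, had 34.3, 27.96, 19.3 and 23.4 CPM in NZO/HlLtJ and 0 counts in all 4 C57BL/6J libraries. Against a floor of 3 counts over the group it was at least 1366-fold higher. H2-Ab1, a class II A chain, was at 39.0, 29.0, 24.01 and 29.3 CPM in NZO/HlLtJ and 70.1, 68.8, 68.2 and 55.2 CPM in C57BL/6J (log2 fold change -1.11 ± 0.32, edgeR adjusted p = 0.0277). The groups did not overlap, but the call was lost without any of C57BL/6J replicates 1, 2 and 3 or NZO/HlLtJ replicates 2, 3 and 4 (adjusted p 0.0569 to 0.0814). It was also lost with identifier series as a term (adjusted p = 0.0756) and within series 76 and 90 (0.0501). The count of lower class II members ranged from 0 to 3 with 1 library left out, and was 0 without C57BL/6J replicate 1 or 2 or NZO/HlLtJ replicate 3 or 4, and 1 without NZO/HlLtJ replicate 2 or C57BL/6J replicate 3.

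The Ifi200 family of DNA sensors, a cluster on chromosome 1, stood out by its share. Of 9 tested, 6 were called lower and 1 higher (list median -1.23), together 77.8% against 12.6% of all genes tested, and 2 were higher without NZO/HlLtJ replicate 4. Mndal (chr1:173857220-173942491) had 0.0909, 0.115, 0.201 and 0.155 CPM in NZO/HlLtJ against 39.2, 34.7, 32.5 and 37.0 CPM in C57BL/6J. It was near absent from every NZO/HlLtJ library (log2 fold change -7.95 ± 0.30, edgeR adjusted p = 1.17e-13). Pydc4 followed with 0.242, 0.0577, 0 and 0 CPM in NZO/HlLtJ and 4.51, 3.94, 4.18 and 4.10 CPM in C57BL/6J, a log2 fold change of -5.83 ± 0.90 that was -7.65 without NZO/HlLtJ replicate 1. Ifi204 averaged 6.79 ± 2.15 CPM in NZO/HlLtJ and 30.6 ± 6.43 CPM in C57BL/6J (SD, n = 4 each; log2 fold change -2.17 ± 0.33, edgeR adjusted p = 0.000127). Ifi202b (chr1:173962568-173982744), a member described as an obesity candidate in New Zealand Obese mice, was the one higher. It had 19.4, 20.8, 13.4 and 12.2 CPM in NZO/HlLtJ against 0.236, 1.78, 0.194 and 0.402 CPM in C57BL/6J (log2 fold change 4.68 ± 0.51, edgeR adjusted p = 2.91e-06), and its log2 fold change was 5.88 without C57BL/6J replicate 2. These genes are close copies, so single values are uncertain.

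Interferon-induced and innate genes differed gene by gene. Mx1, an antiviral GTPase that is defective in C57BL/6J, was at 12.6, 16.9, 5.64 and 6.58 CPM in NZO/HlLtJ and 1.35, 1.35, 1.47 and 1.03 CPM in C57BL/6J (log2 fold change 2.999 ± 0.67, edgeR adjusted p = 0.00511, and 0.0899 within series 76 and 90). Its neighbour Mx2 went the other way, with 0.0589 ± 0.0245 CPM in NZO/HlLtJ and 4.95 ± 0.332 CPM in C57BL/6J (SD, n = 4 each; log2 fold change -6.28 ± 0.60, edgeR adjusted p = 5.01e-07). Of 21 identifiers of interferon-induced GTPases, 3 were called higher and 2 lower; without C57BL/6J replicate 1 or 3 a single one was higher, and 2 were higher without NZO/HlLtJ replicate 1, 2 or 3 or C57BL/6J replicate 2 or 4, a change of just 1.5 times. Of 30 type I interferon-stimulated genes 1 was called in each direction, none was higher with any 1 library left out, and none lower without NZO/HlLtJ replicate 1, 3 or 4 or C57BL/6J replicate 1 or 3. Called in all were 23.8% of the GTPases and 6.67% of the interferon-stimulated genes, against 12.6% of all genes tested. Pycard, the adaptor of inflammasomes, was at 2.91, 2.54, 2.66 and 2.30 CPM in NZO/HlLtJ against 6.82, 7.27, 6.78 and 8.62 CPM in C57BL/6J (log2 fold change -1.50 ± 0.17, edgeR adjusted p = 4.99e-06). The sensor Nlrp1a had 0 counts in NZO/HlLtJ and 54 in C57BL/6J, at least 16.8-fold lower. C5ar1, the receptor for complement C5a, averaged 2.08 ± 0.494 CPM in NZO/HlLtJ and 7.16 ± 1.21 CPM in C57BL/6J (log2 fold change -1.78 ± 0.24, edgeR adjusted p = 2.44e-05). With all libraries 6 of 23 complement genes were called lower and 2 higher, together 34.8%. Of 18 inflammasome and gasdermin genes 3 were called lower and none higher, 16.7%, against 12.6% of all genes tested called in either direction. Log2 fold changes were positive for 6 of the 23 and 4 of the 18.

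Macrophage markers were lower in part. Cd68, a lysosomal membrane protein of macrophages, was at 14.5, 14.7, 18.0 and 18.2 CPM in NZO/HlLtJ against 19.7, 36.6, 37.3 and 40.7 CPM in C57BL/6J (log2 fold change -1.03 ± 0.25, edgeR adjusted p = 0.00938). C1qb, a chain of the complement component that macrophages make, averaged 33.7 ± 2.41 CPM in NZO/HlLtJ and 53.5 ± 7.16 CPM in C57BL/6J (SD, n = 4 each; log2 fold change -0.67 ± 0.19, edgeR adjusted p = 0.0263). C1qb lost its call without NZO/HlLtJ replicate 1 or 2 or C57BL/6J replicate 2 or 3 (adjusted p 0.0633 to 0.0797), and with series as a term (0.0559). Cd68 had an adjusted p of 0.0551 within series 76 and 90. Of the 16 identifiers of macrophage markers, 3 were called lower and none higher, a share of 18.8%. Among all genes tested 6.55% were called lower and 12.6% in either direction. The macrophage markers' log2 fold changes were positive for 6 and negative for 10. The count called lower was 1 in those same 4 fits and 2 in the other 4. The markers' summed level, 458 to 507 CPM in NZO/HlLtJ and 465 to 710 CPM in C57BL/6J, overlapped. Of 11 B and plasma cell markers 3 were called lower (27.3%, against 6.55% of all genes tested) and none higher, and 4 had positive log2 fold changes. Of these 3, 1 is also counted among the lower genes of the unfolded protein response list. The lower count was 1 without NZO/HlLtJ replicate 2, and without C57BL/6J replicate 1 the immunoglobulin heavy chain gene Ighm, named after its values were seen, was called higher (edgeR adjusted p = 0.0271). The B cell receptor partner Cd22, the largest of the 3 by fold, averaged 1.52 ± 0.343 CPM in NZO/HlLtJ and 5.20 ± 0.744 CPM in C57BL/6J (log2 fold change -1.78 ± 0.29, edgeR adjusted p = 0.000236).

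**Figure D4:**
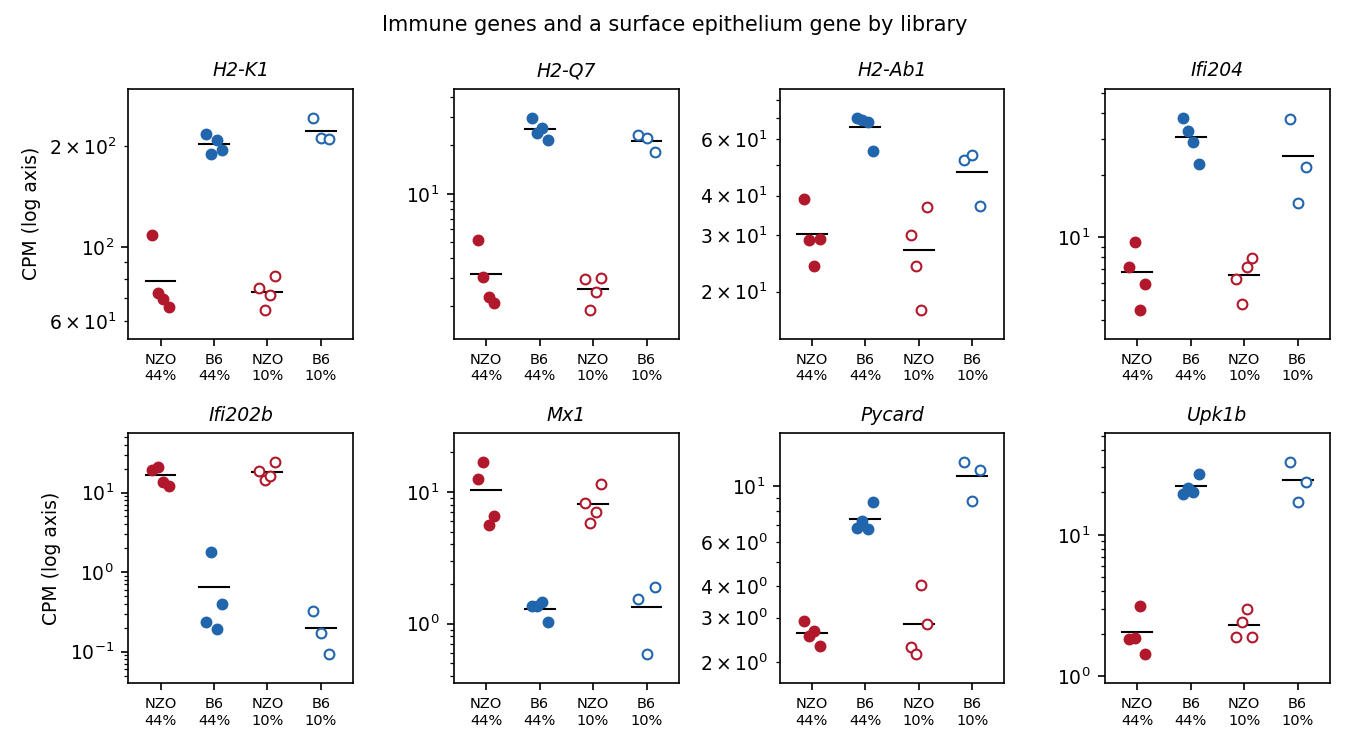
CPM on a log axis of 7 immune genes and the surface epithelium gene Upk1b in each library, with NZO/HlLtJ in red and C57BL/6J (B6) in blue, filled points for 44% fat and open points for 10% fat, and black lines for group means. On 44% fat the 4 NZO/HlLtJ and 4 C57BL/6J values do not overlap for any of the 8 genes, with Ifi202b and Mx1 higher and the others lower in NZO/HlLtJ.

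Igf2, Igf1 and Igfbp5 were higher in NZO/HlLtJ, while the other genes of the IGF system were mostly not called. Igf2 (chr7:142650766-142666816), a growth factor expressed from the paternal allele, was at 30.0, 33.8, 32.3 and 31.6 CPM in NZO/HlLtJ against 9.23, 11.1, 14.7 and 14.5 CPM in C57BL/6J (log2 fold change 1.37 ± 0.16, edgeR adjusted p = 4.02e-06). Igf1, made by granulosa cells in rodents, averaged 138 ± 24.4 CPM in NZO/HlLtJ and 82.6 ± 19.2 CPM in C57BL/6J (SD, n = 4 each; log2 fold change 0.74 ± 0.16, edgeR adjusted p = 0.00361). Igfbp5, a binding protein that holds IGFs in the matrix, was at 1020, 1073, 1162 and 1061 CPM in NZO/HlLtJ and 533, 630, 620 and 734 CPM in C57BL/6J (log2 fold change 0.78 ± 0.17, edgeR adjusted p = 0.00351). They were the 3 called higher of 15 genes of the IGF system, whose median log2 fold change was 0.02, and the 15 summed to 2450 to 2502 CPM in NZO/HlLtJ and 1788 to 2009 CPM in C57BL/6J. In either direction 26.7% of the 15 were called, against 12.6% of all genes tested. The single member called lower lost its call in 7 of the 8 fits with a library left out, all but that without NZO/HlLtJ replicate 2.

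In insulin signalling, 2 of 18 genes were called higher and 1 lower, together 16.7% against 12.6% of all genes tested. Tbc1d4 and Tbc1d1 are paralogous Rab GTPase-activating proteins that AKT regulates in glucose transport, and they moved in opposite directions. Tbc1d4 averaged 83.4 ± 9.06 CPM in NZO/HlLtJ and 52.7 ± 4.46 CPM in C57BL/6J (SD, n = 4 each; log2 fold change 0.66 ± 0.12, edgeR adjusted p = 0.000656). Tbc1d1 averaged 37.5 ± 0.726 CPM in NZO/HlLtJ and 59.7 ± 6.81 CPM in C57BL/6J (log2 fold change -0.67 ± 0.09, edgeR adjusted p = 3.13e-05). Grb14, an inhibitor of the insulin receptor, was at 447, 395, 472 and 340 CPM in NZO/HlLtJ against 158, 272, 208 and 269 CPM in C57BL/6J (log2 fold change 0.86 ± 0.28, edgeR adjusted p = 0.0456). The Grb14 groups did not overlap, but the call was lost without NZO/HlLtJ replicate 1, 2 or 3 or C57BL/6J replicate 1, 2 or 3 (adjusted p 0.0517 to 0.14), which left 1 gene called higher. It was lost with series as a term too (adjusted p = 0.119) and within series 76 and 90 (0.102).

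Gpx3, Hmox1, Pgk1 and Pkm were lower and Nnt higher in NZO/HlLtJ, while most redox and glycolysis genes were not called. Gpx3 (chr11:54902453-54910377), the secreted glutathione peroxidase, was at 124, 149, 79.2 and 166 CPM in NZO/HlLtJ against 980, 784, 723 and 880 CPM in C57BL/6J. The highest NZO/HlLtJ value was well below the lowest C57BL/6J value (log2 fold change -2.70 ± 0.28, edgeR adjusted p = 1.76e-06). Hmox1, the heme-degrading oxygenase, averaged 32.1 ± 5.37 CPM in NZO/HlLtJ and 59.4 ± 7.62 CPM in C57BL/6J (SD, n = 4 each; log2 fold change -0.89 ± 0.19, edgeR adjusted p = 0.00387). Nnt, the mitochondrial proton-driven NADPH source that is disrupted in C57BL/6J by loss of several exons, was at 103, 94.0, 93.0 and 98.8 CPM in NZO/HlLtJ against 59.7, 67.9, 66.1 and 68.1 CPM in C57BL/6J (log2 fold change 0.57 ± 0.13, edgeR adjusted p = 0.0053). Gene counts cannot show the missing exons. Of 34 redox and NADPH genes, 1 was called higher, 4 lower and 29 neither way (list median -0.15), a share called of 14.7%, near the 12.6% of all genes tested.

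Pgk1, which makes ATP in glycolysis, was at 57.2, 65.5, 71.8 and 63.2 CPM in NZO/HlLtJ and 179, 196, 177 and 175 CPM in C57BL/6J (log2 fold change -1.50 ± 0.22, edgeR adjusted p = 0.000113). Pkm, the last enzyme of the pathway, averaged 356 ± 16.5 CPM in NZO/HlLtJ and 571 ± 37.4 CPM in C57BL/6J (SD, n = 4 each; log2 fold change -0.68 ± 0.14, edgeR adjusted p = 0.00232). Of 21 glycolysis genes 4 were called lower, 2 higher and 15 neither way (list median -0.22), a share called of 28.6% against 12.6% of all genes tested. The higher pair held least well: no member was called higher without C57BL/6J replicate 2 or 3 or NZO/HlLtJ replicate 4, and 1 was without each of the other 5 libraries. Pgk1 has processed copies in the genome that can share reads. The mitochondrial mRNA mt-Nd2, of a subunit of complex I, was at 1596, 1710, 1503 and 1117 CPM in NZO/HlLtJ against 2064, 2177, 2015 and 2215 CPM in C57BL/6J (log2 fold change -0.52 ± 0.11, edgeR adjusted p = 0.00266). It was 1 of 2 called lower among 13 mitochondrial mRNAs, and 3 were lower without C57BL/6J replicate 1. No mitochondrial mRNA was called higher. The share of 15.4% with all libraries is near the 12.6% of all genes tested called in either direction (6.55% called lower). Ftl1, the light chain of the iron store ferritin, was at 675, 642, 798 and 813 CPM in NZO/HlLtJ and 1288, 1358, 1407 and 1131 CPM in C57BL/6J (log2 fold change -0.82 ± 0.13, edgeR adjusted p = 0.000155), and it too has processed copies.

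Upk1b, Msln, Krt7 and Gpm6a, of the ovarian surface, were lower in NZO/HlLtJ. Of 10 surface epithelium and mesothelium genes, 4 were called lower on each diet and on 44% fat in every fit with a library left out, and none higher (list median -0.53). On 44% fat this is 40%, against 6.55% of all genes tested called lower. Upk1b (chr16:38773184-38800203), a membrane protein of the tetraspanin family, was at 1.85, 1.88, 3.12 and 1.44 CPM in NZO/HlLtJ against 19.6, 21.4, 19.97 and 27.0 CPM in C57BL/6J (log2 fold change -3.41 ± 0.32, edgeR adjusted p = 2.45e-07). Msln, mesothelin, averaged 6.57 ± 2.25 CPM in NZO/HlLtJ and 18.9 ± 1.71 CPM in C57BL/6J (SD, n = 4 each; log2 fold change -1.52 ± 0.23, edgeR adjusted p = 0.000118). Krt7, an epithelial keratin, and Gpm6a, a membrane glycoprotein, had log2 fold changes of -1.28 ± 0.29 and -1.001 ± 0.20. The 10 markers summed to 199 to 259 CPM in NZO/HlLtJ and 262 to 303 CPM in C57BL/6J, and whether less surface tissue was collected was not tested.

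Of 18 oocyte genes 2 were called higher in NZO/HlLtJ and none lower, a share of 11.1%. Among all genes tested 12.6% were called in either direction and 6.00% higher. Kit (chr5:75574916-75656722), the receptor through which granulosa cells support oocyte growth, was at 157, 150, 184 and 195 CPM in NZO/HlLtJ against 73.1, 87.3, 83.8 and 73.4 CPM in C57BL/6J (log2 fold change 1.11 ± 0.28, edgeR adjusted p = 0.0105). Khdc3, of the maternal complex that oocytes store, averaged 12.9 ± 2.66 CPM in NZO/HlLtJ and 7.40 ± 0.599 CPM in C57BL/6J (SD, n = 4 each; log2 fold change 0.80 ± 0.24, edgeR adjusted p = 0.0289). Khdc3 was lost without NZO/HlLtJ replicate 1 or 3 or C57BL/6J replicate 2, 3 or 4 (adjusted p 0.0566 to 0.0957), which left 1 member called. The log2 fold changes of 17 of the 18 were positive, their median was 0.40, and the summed level was 799 to 1034 CPM in NZO/HlLtJ and 543 to 660 CPM in C57BL/6J. On 10% fat 5 of the 18 were called higher and none lower, where 4.46% of all genes tested were called higher. Among 14 granulosa markers a single gene was called, Kctd14, a share of 7.14% against 12.6% of all genes tested. Log2 fold changes were positive for 5 of the 14. Kctd14 was at 80.9 ± 4.60 CPM in NZO/HlLtJ and 184 ± 19.9 CPM in C57BL/6J (log2 fold change -1.18 ± 0.21, edgeR adjusted p = 0.000679). Of 13 hedgehog pathway genes 2 were called higher and none lower. That share of 15.4% is near the 12.6% of all genes tested called in either direction (6.00% called higher). The count of hedgehog genes was 0 without NZO/HlLtJ replicate 2 or C57BL/6J replicate 3 and 1 without NZO/HlLtJ replicate 1 or 4 or C57BL/6J replicate 1.

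In the stroma, Lum, a collagen-binding proteoglycan, averaged 230 ± 32.9 CPM in NZO/HlLtJ and 123 ± 40.6 CPM in C57BL/6J (SD, n = 4 each; log2 fold change 0.90 ± 0.20, edgeR adjusted p = 0.00423). Fn1, fibronectin, averaged 209 ± 41.6 CPM in NZO/HlLtJ and 374 ± 68.3 CPM in C57BL/6J (log2 fold change -0.84 ± 0.22, edgeR adjusted p = 0.0139), with an adjusted p of 0.0522 without NZO/HlLtJ replicate 3 and 0.0643 within series 76 and 90. Of 29 matrix genes 1 was called higher and 3 lower (list median -0.25), a share of 13.8%, near the 12.6% of all genes tested. With 1 library left out, 0 to 6 were lower. That count was 0 without NZO/HlLtJ replicate 3, 1 without NZO/HlLtJ replicate 1 or 2 or C57BL/6J replicate 1 or 3, 2 without NZO/HlLtJ replicate 4 or C57BL/6J replicate 2 and 6 without C57BL/6J replicate 4. Wnt2b, a Wnt ligand, and Fzd4, a Wnt receptor, were the 2 called lower of 27 Wnt genes, with log2 fold changes of -0.97 ± 0.18 and -0.63 ± 0.14 (edgeR adjusted p = 0.000982 and 0.00475). No Wnt gene was called higher, and 7.41% called lower is near the 6.55% of all genes tested. Vwf, the endothelial clotting factor, averaged 15.1 ± 3.51 CPM in NZO/HlLtJ and 27.6 ± 4.68 CPM in C57BL/6J (log2 fold change -0.87 ± 0.19, edgeR adjusted p = 0.0044). The transcription factor subunit Jun averaged 47.3 ± 6.01 CPM in NZO/HlLtJ and 87.5 ± 8.69 CPM in C57BL/6J (log2 fold change -0.89 ± 0.16, edgeR adjusted p = 0.000839), and Klf4 fell beside it (log2 fold change -0.79 ± 0.20, edgeR adjusted p = 0.0129). Of 20 immediate early genes 4 were called lower and none higher, which is 20%. Among all genes tested 6.55% were called lower and 12.6% in either direction. In the immediate early list 2 were lower without NZO/HlLtJ replicate 1 or 3 or C57BL/6J replicate 3.

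**Figure D5:**
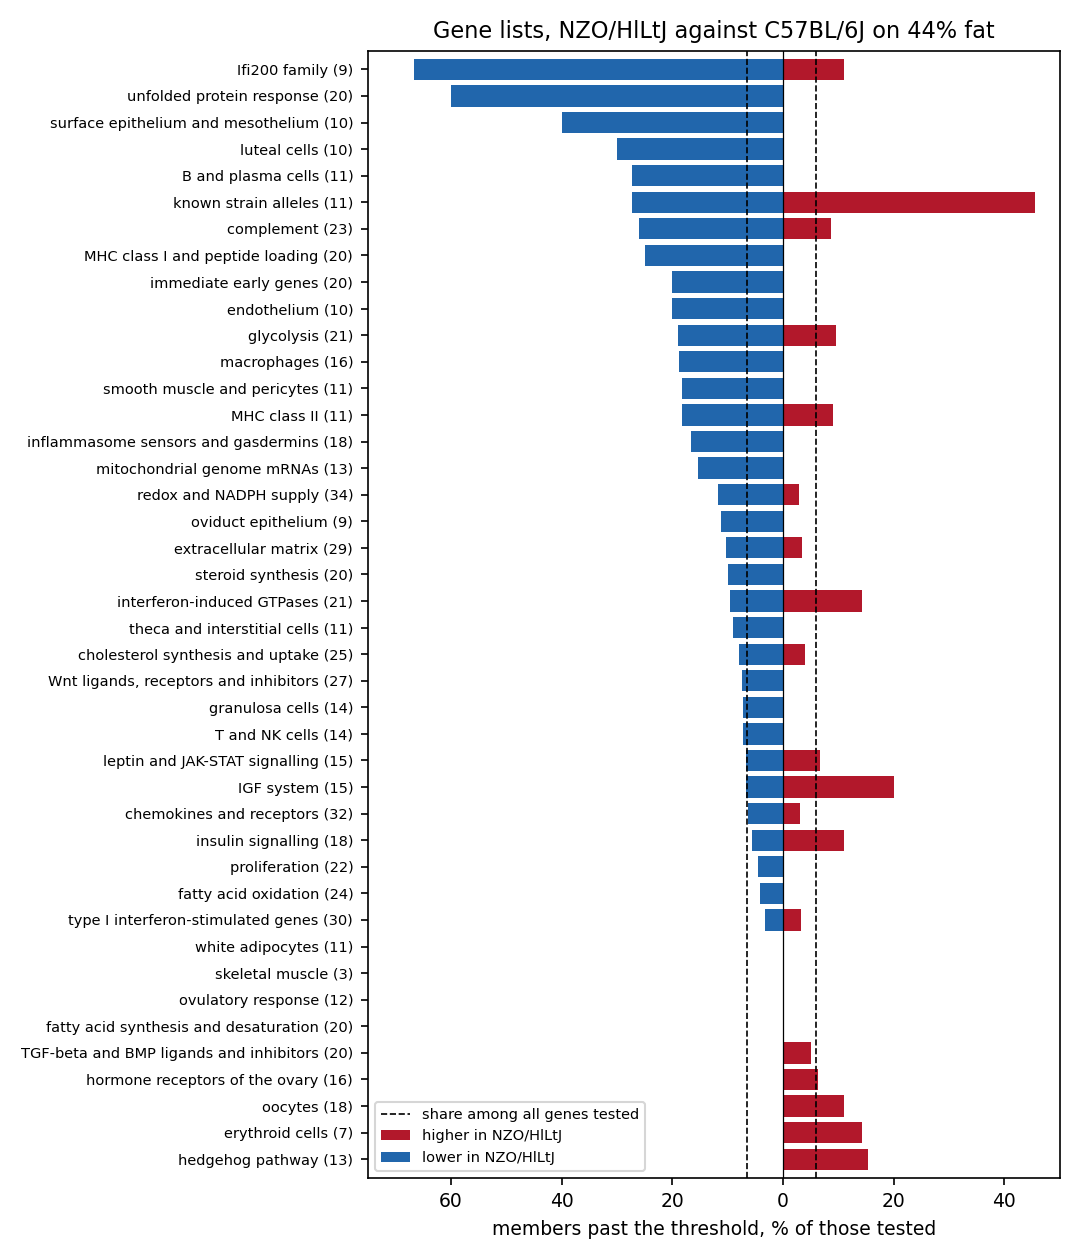
For each of 42 gene lists (number of members tested in parentheses), the percentage of tested members called higher in NZO/HlLtJ (red, to the right) and lower (blue, to the left) on 44% fat, with dashed lines at the shares among all genes tested, 6.00% and 6.55%. The Ifi200 family and the unfolded protein response reach furthest to the left. The known strain alleles, a list chosen for alleles that differ, reach furthest to the right.

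The largest folds were of genes near 0 in 1 strain. Hist2h2aa2, a replication histone with near-identical copies, had 943 counts in NZO/HlLtJ and 0 in C57BL/6J, at least 336-fold higher. Obox2, an oocyte homeobox gene with close paralogs, had 0 counts in NZO/HlLtJ and 2433 in C57BL/6J, at least 758-fold lower. Apol7e, of the apolipoprotein L family, had 2 counts in NZO/HlLtJ and 1996 in C57BL/6J, a CPM ratio of C57BL/6J over NZO/HlLtJ of 933 (95% exact counting interval 258 to 7706). The intervals and floors cover counting error only. By the rule of a mean under 0.1 CPM in 1 strain and at least 1 CPM in the other, with a call and no overlap, 31 genes were near 0 in NZO/HlLtJ and 31 in C57BL/6J. The same rule held on 10% fat for 22 and 14 of them, and 10 and 9 were pseudogenes.

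Among genes that the rule above does not count as near 0, Slit2 (chr5:47983138-48307733), a secreted guidance ligand of Robo receptors, was at 196, 164, 335 and 200 CPM in NZO/HlLtJ against 15.5, 13.9, 14.3 and 16.0 CPM in C57BL/6J (log2 fold change 3.91 ± 0.49, edgeR adjusted p = 1.5e-05). Zfp949, a zinc finger gene, averaged 168 ± 14.03 CPM in NZO/HlLtJ and 16.8 ± 1.99 CPM in C57BL/6J (SD, n = 4 each; log2 fold change 3.33 ± 0.14, edgeR adjusted p = 4.92e-13). Slc39a8, a zinc and manganese transporter, averaged 59.96 ± 7.01 CPM in NZO/HlLtJ and 5.30 ± 0.920 CPM in C57BL/6J (log2 fold change 3.50 ± 0.16, edgeR adjusted p = 5.01e-12). Mrap2, an accessory protein of melanocortin receptors, averaged 12.6 ± 2.07 CPM in NZO/HlLtJ and 0.595 ± 0.229 CPM in C57BL/6J (log2 fold change 4.40 ± 0.43, edgeR adjusted p = 4.76e-07). Sstr1, a somatostatin receptor, was at 22.6, 27.99, 1.92 and 28.03 CPM in NZO/HlLtJ, with replicate 3 far below the rest, and 0.150, 0.0282, 0.138 and 0.151 CPM in C57BL/6J (log2 fold change 7.36 ± 0.85, edgeR adjusted p = 5.58e-06). In C57BL/6J the Mrap2 and Sstr1 values rest on few reads, so the size of their folds is uncertain. Others called higher were Gbp2b and Spocd1, with log2 fold changes of 5.27 ± 0.35 and 3.83 ± 0.32.

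Tpm3-rs7 (chr14:113314608-113316713) is a processed copy of a tropomyosin gene, so its reads may be shared with the parent. It was at 73.2, 74.4, 73.6 and 76.3 CPM in NZO/HlLtJ against 0.150, 0.0845, 0.194 and 0.126 CPM in C57BL/6J (log2 fold change 9.03 ± 0.15, edgeR adjusted p = 2.66e-20). Hba-a1, an alpha globin gene, was at 58.3, 34.2, 52.4 and 123 CPM in NZO/HlLtJ against 0.923, 1.89, 0.332 and 0.503 CPM in C57BL/6J (log2 fold change 6.21 ± 0.64, edgeR adjusted p = 1.42e-06, and 6.80 without C57BL/6J replicate 2). Its near-identical copy Hba-a2, named after its values were seen, was at 98.4, 75.2, 78.8 and 201 CPM in NZO/HlLtJ and 294, 266, 112 and 113 CPM in C57BL/6J and was not called (log2 fold change -0.79 ± 0.55, edgeR adjusted p = 0.387). The 7 erythroid markers summed to 206 to 632 CPM in NZO/HlLtJ and 230 to 563 CPM in C57BL/6J, which overlapped.

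Genes much lower in NZO/HlLtJ included Paqr9, of the progestin and adipoQ receptor family, at 0.273, 0.433, 0.143 and 0.199 CPM against 13.2, 28.1, 22.7 and 23.9 CPM in C57BL/6J (log2 fold change -6.39 ± 0.65, edgeR adjusted p = 1.14e-06). Fggy, a carbohydrate kinase, averaged 0.707 ± 0.160 CPM in NZO/HlLtJ and 14.7 ± 1.53 CPM in C57BL/6J (SD, n = 4 each; log2 fold change -4.38 ± 0.16, edgeR adjusted p = 8.46e-14). Ctnna2, an alpha catenin, averaged 0.712 ± 0.295 CPM in NZO/HlLtJ and 13.9 ± 1.58 CPM in C57BL/6J (log2 fold change -4.27 ± 0.42, edgeR adjusted p = 5.41e-07). Zfp607 and Islr2 had log2 fold changes of -5.77 ± 0.31 and -4.17 ± 0.68, and Myom2 -3.88 ± 0.77. The mucin Muc5b had -4.14 ± 0.70, which was -3.33 without C57BL/6J replicate 4 and -4.87 without NZO/HlLtJ replicate 4. The transcription factor Onecut2 had -4.00 ± 1.02 (edgeR adjusted p = 0.0127, and 0.0646 within series 76 and 90), and on 10% fat -1.37 ± 0.95 (adjusted p = 0.417). Oog1, an oocyte gene with copies, was at 0.121, 0, 0 and 0 CPM in NZO/HlLtJ and 7.04, 7.24, 5.67 and 7.11 CPM in C57BL/6J, with its counts in NZO/HlLtJ all from replicate 1.

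By difference in CPM, the lower genes were led by Cyp11a1, then Aldh1a1, Gpx3, mt-Nd2, Psap and Ftl1. Psap, the precursor of lysosomal sphingolipid activators, was at 1086, 1112, 1072 and 1225 CPM in NZO/HlLtJ against 1606, 1773, 2031 and 1548 CPM in C57BL/6J (log2 fold change -0.63 ± 0.18, edgeR adjusted p = 0.0242), and lost its call without NZO/HlLtJ replicate 1, 2 or 3 or C57BL/6J replicate 2 or 3 (adjusted p 0.0528 to 0.0898) and with series as a term (0.0789). Aldh1a1, which makes retinoic acid, was at 909, 892, 1013 and 908 CPM in NZO/HlLtJ against 1346, 2457, 1752 and 3108 CPM in C57BL/6J (log2 fold change -1.22 ± 0.32, edgeR adjusted p = 0.0159, and 0.0549 without C57BL/6J replicate 4). The higher genes by this measure included Tsc22d1, a TGF-beta-responsive regulator, at 1614 ± 85.9 CPM in NZO/HlLtJ and 1233 ± 48.7 CPM in C57BL/6J (SD, n = 4 each; log2 fold change 0.39 ± 0.10, edgeR adjusted p = 0.0137, and 0.0747 within series 76 and 90).

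Of the 11 tested genes with alleles known to differ among mouse strains, 5 were called higher and 3 lower, together 72.7%. The list was chosen for such alleles, with earlier results of these data known. A share above the 12.6% of all genes tested is therefore no separate result. Nnt, Ifi202b, H2-Ea-ps, Lepr, Mx1 and Mx2 are also counted in lists above. The higher ones were Nnt, Ifi202b, H2-Ea-ps, Lepr and Mx1, and the lower ones Mx2, Pctp and Abcg1. Pctp, a phosphatidylcholine carrier, had a log2 fold change of -0.46 ± 0.13 (edgeR adjusted p = 0.0206) and Abcg1, a cholesterol exporter, -0.64 ± 0.19 (edgeR adjusted p = 0.0339). Pctp was lost without NZO/HlLtJ replicate 1 or 2 or C57BL/6J replicate 3 or 4 (adjusted p 0.0529 to 0.0759), and Abcg1 without NZO/HlLtJ replicate 1, 2 or 3 or C57BL/6J replicate 2, 3 or 4 (adjusted p 0.0612 to 0.102). Abcg1 had an adjusted p of 0.097 with series as a term, and Pctp 0.14 within series 76 and 90. Zfp69, another New Zealand Obese candidate, averaged 3.001 ± 0.225 CPM in NZO/HlLtJ and 2.65 ± 0.529 CPM in C57BL/6J and was not called (log2 fold change 0.18 ± 0.21, edgeR adjusted p = 0.645). Socs2 and Nlrp12 were not called either (edgeR adjusted p = 0.363 and 0.481).

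Called genes were unevenly spread along the genome. Of 462 windows of 5 Mb with at least 10 genes tested, the median window had 11.1% of its genes called, 34 windows had over 25% and 25 had none. The highest share was at the start of chromosome 14 (chr14:1-5000000), with 10 of 13 genes called. On chr1:170000001-175000000, which holds the Ifi200 family, 33 of 95 were called (34.7%), and on chr4:145000001-150000000 31 of 81 (38.3%). By chromosome the share ran from 8.83% on X to 16.9% on 4, leaving out the mitochondrial genome and Y. Pseudogenes were called in 14.2% of cases, lincRNAs in 13.1% and protein-coding genes in 12.7%. The build named for these data, GRCm38, is the C57BL/6J genome, and the part that mapping of NZO/HlLtJ reads has in these differences was not tested.

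No gene passed when the strain difference on 44% fat was tested against that on 10% fat over all 20189 genes with edgeR. DESeq2 called 5. In edgeR 791 genes had an unadjusted p under 0.05, fewer than the 1 in 20 that would have it if no gene differed. The 5 smallest p-values belonged to Ccnyl1, Socs3, Elfn2, Tdg-ps and Scn1a. Ccnyl1, a cyclin-like gene, averaged 23.2 ± 1.40 CPM in NZO/HlLtJ and 27.6 ± 2.07 CPM in C57BL/6J on 44% fat (SD, n = 4 each). On 10% fat it averaged 27.8 ± 1.59 CPM in NZO/HlLtJ (SD, n = 4) and 22.2 ± 0.4498 CPM in C57BL/6J (SD, n = 3), and the unadjusted p was 4.18e-05 (edgeR adjusted p = 0.844). Socs3, an inhibitor of cytokine and leptin signalling, averaged 14.6 ± 1.87 CPM in NZO/HlLtJ and 20.2 ± 6.03 CPM in C57BL/6J on 44% fat, and 21.1 ± 5.14 CPM in NZO/HlLtJ and 13.5 ± 1.67 CPM in C57BL/6J on 10% fat (edgeR, unadjusted p = 0.000265). Elfn2 and Scn1a were under 1 CPM on average in every group. The pseudogene Tdg-ps had 0 counts in the 4 C57BL/6J libraries on 44% fat, where it was at least 341-fold higher in NZO/HlLtJ, and averaged 0.0640 CPM in C57BL/6J on 10% fat.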

How the data were processed

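Ovary mRNA of 23 libraries was sequenced as 100-base read pairs, per the labels' protocols. The authors deposited a table of estimated counts per gene, not normalised, of which 27.4% of values are not whole. They also deposited a table of variance-stabilised log2 values. GRCm38 and DESeq2 are named in the submitters' processing notes, and the aligner and counter are not given in the sources used here. Counts were rounded, genes with low counts were removed (minimum 10, total 15; 20189 of 24716 kept), and libraries were scaled with TMM. CPM are on that scale. edgeR 4.0.16 (R 4.3.3) fitted 6 group means over all 23 libraries with the robust quasi-likelihood test, and p-values were adjusted over all genes tested. The CAST/EiJ libraries thus took part in the filter, the scaling and the estimate of spread behind every p-value. SE is the absolute log2 fold change over the square root of F. The procedure was tested on simulated data. DESeq2 1.42.0 and limma 3.58.1 were alternatives, limma also on the deposited log2 values. Total counts ran from 31938819 to 45850873, and no 2 replicates agreed within sampling noise.

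Strain and diet came from the titles. The labels number no replicates, so numbers follow accession order and only name libraries. Named genes were up to 12 in each direction with the largest fold (adjusted p under 0.05, at least 5 CPM, no overlap, no clone, predicted or pseudogene entry), up to 6 in each direction with the largest CPM difference, up to 4 of each list, the known strain alleles, and the 5 smallest p of the diet difference. The members and lists were chosen with earlier results of these data known. Gene positions are from the gene annotation deposited with the data, and gene types are from GENCODE M21, matched for 24557 genes. A result that the rule names is not reported here.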

Additional observations from a re-analysis of the deposited data

Results flagged for a closer look

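In 23 of 230 groups of 4 libraries, over the genes named and the summed markers, the highest or lowest library lay far from the other 3 by Dixon's test at 95%, where chance gives about 1 in 20 groups. Among NZO/HlLtJ libraries on 44% fat, replicate 1 was highest for H2-K1 (108 CPM), H2-Q4 (21.5 CPM), Cd8a (0.333 CPM) and Oog1 (0.121 CPM). NZO/HlLtJ replicate 3 was highest for Aldh1a1 (1013 CPM), Pdia6 (277 CPM), Gstm2 (202 CPM), Krt7 (11.6 CPM) and the summed white adipocyte markers (124 CPM). NZO/HlLtJ replicate 4 was lowest for the summed smooth muscle and pericyte markers (1337 CPM) and highest for skeletal muscle markers (1.31 CPM). Among C57BL/6J libraries on 44% fat, replicate 1 was highest for the summed oviduct epithelium markers (259 CPM), the summed white adipocyte markers (238 CPM) and the cilium gene Dnah5 (29.6 CPM). The Dnah5 call, lower in NZO/HlLtJ, was lost without that library (edgeR adjusted p = 0.243). C57BL/6J replicate 2 was highest for Pdia4 (846 CPM) and Ifi202b (1.78 CPM) and lowest for Sstr1 (0.0282 CPM). C57BL/6J replicate 3 was highest for Socs3 (29.1 CPM) and lowest for Oog1 (5.67 CPM) and Zfp69 (1.85 CPM). C57BL/6J replicate 4 was lowest for Fn1 (272 CPM), H2-Ab1 (55.2 CPM) and Ccnyl1 (24.5 CPM).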

How the results depend on the processing

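The 2534 genes called on 44% fat came to 3193 with DESeq2, 2524 with relative log expression scaling, 2373 without the count filter, 3470 with the 8 libraries alone, 1906 with identifier series as a term, 1969 in series 76 and 90 alone, 4861 with limma's quality weights and 2685 with limma on the deposited log2 values. With 1 library left out they ranged from 1680 (without C57BL/6J replicate 3) to 2521, and the cause was not tested. The 2019 genes called on 10% fat came to 1159 with only the libraries compared, 3096 in series 76 and 90 alone and 5523 with quality weights, and ranged from 1106 to 2994 with 1 library left out. The diet difference, with 0 genes, had 5 with DESeq2. It had 0 in each fit with a library left out. Of 92 genes named here and called, 69 kept direction and call under all 16 alternatives, and none changed sign. No paired analysis was possible because the labels number no replicates. Depth limits genes under about 1 CPM, where few reads carry a value.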
